A study of Mus musculus with 8 samples.

Results

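Homeostatic microglia carry a set of surface receptors and regulators that fall when the cells become activated. Of these homeostatic signature genes, 9 of the 32285 genes in the table of microglia were chosen by name: P2ry12, P2ry13, Gpr34, Cx3cr1, Tmem119, Selplg, Siglech, Fcrls and Sall1. They were followed in nuclei from brain hemispheres of 6-month-old C57BL6/J mice, sequenced as 8 libraries, with 2 libraries for each of 4 genotypes. WT mice carried neither change. Cnp-/- mice lacked the myelin protein CNP in every cell from birth, so that their myelin and axons degenerate with age. 5xFAD mice carried human transgenes with familial Alzheimer's disease mutations under the neuronal Thy1 promoter, which deposit amyloid plaques. Cnp-/- 5xFAD mice carried both. The reporting form filed with the paper gives female mice for the Cnp crosses and single-cell replicates pooled from a pair of animals, whereas the methods speak of both sexes for the study as a whole and of pooling only for a dataset not analysed here. The p-values measure the spread between the libraries. The authors divided microglia and macrophages into 982 homeostatic nuclei, 586 amyloid-DAM, 248 myelin-DAM, 270 MyTE nuclei and 205 macrophages. DAM stands for disease-associated microglia and MyTE for nuclei enriched in myelin transcripts.

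P2RY12, P2RY13 and GPR34 are receptors coupled to inhibitory G proteins. P2RY12 and P2RY13 bind ADP, and P2RY12 steers microglial processes towards nucleotides released by damaged cells. GPR34 binds lysophosphatidylserine. CX3CR1 is the receptor of fractalkine (CX3CL1), which neurons make, and restrains microglial activation. SELPLG is a glycoprotein ligand of P-selectin, SIGLECH is a sialic acid-binding lectin, FCRLS is an Fc receptor-like scavenger receptor and TMEM119 is a membrane protein used to tell resident microglia from other macrophages. SALL1 is a zinc finger transcription factor that maintains microglial identity. Loss of these transcripts is part of the description of DAM in amyloid models.

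In GRCm38, P2ry12 (ENSMUSG00000036353) lies at chr3:59216272-59262871 on the minus strand, and P2ry13 (ENSMUSG00000036362) lies 5389 bp from it at chr3:59207892-59210882. Both lie inside Med12l, a mediator subunit gene on the opposite strand. Tmem119 (chr5:113793729-113800516) and Selplg (chr5:113818536-113832644) are also neighbours, 18019 bp apart on the minus strand. The others are Cx3cr1 (chr9:119901616-120069879, minus strand), Siglech (chr7:55768178-55778925, plus strand), Gpr34 (chrX:13632089-13640858, plus strand, inside Cask), Sall1 (chr8:89027235-89044162, minus strand) and Fcrls (chr3:87250758-87263738, minus strand). The 250 bases before the RefSeq start site (GRCm38.p6) are shown for 4 members that took different courses in the results. P2ry12 and Siglech were low in both DAM subpopulations, and Cx3cr1 had like means in both. Fcrls had a higher mean in macrophages than in homeostatic nuclei, with ranges that overlapped. P2ry12 is shown at chr3:59262986-59263235 (minus strand), Fcrls at chr3:87263525-87263774 (minus strand), Siglech at chr7:55767934-55768183 (plus strand) and Cx3cr1 at chr9:120068297-120068546 (minus strand). Capitals mark the letters AGGAAGT on either strand, which fit the binding sequence of PU.1, the factor encoded by Spi1 on which microglia depend.
P2ry12: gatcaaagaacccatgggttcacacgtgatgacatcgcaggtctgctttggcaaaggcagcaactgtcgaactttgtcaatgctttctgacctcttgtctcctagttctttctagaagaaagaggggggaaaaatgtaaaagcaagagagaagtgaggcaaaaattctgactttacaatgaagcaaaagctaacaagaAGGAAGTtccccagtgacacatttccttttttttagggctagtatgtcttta
Fcrls: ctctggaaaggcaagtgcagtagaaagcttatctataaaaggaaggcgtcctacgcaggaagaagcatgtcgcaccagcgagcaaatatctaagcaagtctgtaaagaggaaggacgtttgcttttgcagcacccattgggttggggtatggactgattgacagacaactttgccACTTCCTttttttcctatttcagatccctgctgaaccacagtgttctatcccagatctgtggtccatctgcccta
Siglech: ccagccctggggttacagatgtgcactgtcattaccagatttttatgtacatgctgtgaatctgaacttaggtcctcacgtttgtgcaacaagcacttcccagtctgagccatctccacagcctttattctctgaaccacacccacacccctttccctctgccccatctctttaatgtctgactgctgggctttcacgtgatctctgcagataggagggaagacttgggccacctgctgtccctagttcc
Cx3cr1: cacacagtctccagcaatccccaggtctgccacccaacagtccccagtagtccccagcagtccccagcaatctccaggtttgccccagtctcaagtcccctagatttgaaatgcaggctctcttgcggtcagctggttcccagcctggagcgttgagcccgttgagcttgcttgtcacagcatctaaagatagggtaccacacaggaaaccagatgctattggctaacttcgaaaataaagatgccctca
RefSeq promoters were given for 6 of the 9 genes, as 8 promoters, since Sall1 has 3. AGGAAGT was found in 3 of these 8 (P2ry12, Fcrls and 1 of Sall1) and in 7.69% of 32851 mouse promoters of this length. For P2ry12 and this promoter of Sall1, the first bases after the start site were not found in a transcript. The P2ry12 window lies beyond the gene span given above, and that of Sall1 inside it. Of the other letters searched, GAGGAA was found in 2 of 8 against 23.3% of all, and TGACTCA, read by AP-1, in 0 of 8 against 4.46%. The 3 motifs were chosen after several had been looked at, and GAGGAA and AGGAAGT can overlap. A match here is a description of letters, not a measured binding site.

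Across all cell types 61949 nuclei were counted, 6801 to 8824 per library, and 2291 of them (70 to 492 per library) belonged to the table of microglia and macrophages. For every subpopulation of a library that held 20 nuclei or more, UMIs (unique molecular identifiers, which count each captured transcript once) were added up into 1 profile, and levels are given as CPM, UMIs per 1000000 UMIs of that profile. Homeostatic profiles held 79010 to 246936 UMIs, and myelin-DAM profiles 47149 to 102734. In mature oligodendrocytes, Cnp was counted at 219 to 321 CPM in libraries with intact Cnp and at 23.1 to 32.8 CPM in the Cnp-/- background. The microglia markers Csf1r, Inpp5d, C1qa, C1qb, Trem2 and Tyrobp were all counted in homeostatic nuclei. Of the 6 neuronal markers, Snap25, Rbfox3, Grin2a and Nrgn were at 0 in homeostatic profiles, and all 6 summed to 0 to 12.1 CPM. The 6 astrocyte markers summed to 319 to 854 CPM in homeostatic profiles, with Aqp4 at 0. The part of the astrocyte markers in the members' levels was not tested. Of the microglia and macrophage nuclei, 0 shared their barcode with a nucleus of another library in their table, and of the nuclei of all cell types 909 did.

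P2ry12 was highest in homeostatic nuclei, at 1049 ± 112 CPM (SD, n = 8), and lower in both DAM subpopulations. Amyloid-DAM gave 674 and 619.5 CPM in 5xFAD and 453 and 642 CPM in Cnp-/- 5xFAD libraries. Myelin-DAM gave 399 and 424 CPM in Cnp-/- and 352 and 531 CPM in Cnp-/- 5xFAD libraries. All 8 DAM profiles lay below the lowest homeostatic profile of 911 CPM, and the ranges of the DAM subpopulations overlapped each other. Relative to homeostatic nuclei of the same libraries, the mean level was 55.6% in amyloid-DAM and 41.8% in myelin-DAM. P2ry13, its chromosomal neighbour, was counted by few UMIs, at 17.0 to 67.5 CPM in homeostatic nuclei, 12.5 to 50.2 CPM in amyloid-DAM and 29.2 to 53.1 CPM in myelin-DAM, and these ranges overlapped. Gpr34 also overlapped, with 317 to 519 CPM in homeostatic nuclei, 212 to 441 CPM in amyloid-DAM and 228 to 361 CPM in myelin-DAM. Its means in the DAM subpopulations were 88.4% and 74.0% of the homeostatic level.

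Cx3cr1 kept a higher share of its homeostatic level in DAM than P2ry12 did. The homeostatic level was 1152 ± 109 CPM (SD, n = 8), and both DAM subpopulations stood at about the same share of it, 69.1% in amyloid-DAM and 68.6% in myelin-DAM. Amyloid-DAM gave 699 and 686 CPM in 5xFAD and 839 and 995 CPM in Cnp-/- 5xFAD libraries. Myelin-DAM gave 808 and 1145 CPM in Cnp-/- and 621 and 691 CPM in Cnp-/- 5xFAD libraries. The myelin-DAM profile of Cnp-/- replicate 2, at 1145 CPM, lay within the homeostatic range, and so did the highest amyloid-DAM profile, at 995 CPM against a lowest homeostatic value of 987 CPM.

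Selplg was the member that separated homeostatic nuclei, amyloid-DAM and myelin-DAM without overlap. It was counted at 988 ± 133 CPM (SD, n = 8) in homeostatic nuclei. Amyloid-DAM gave 567 and 385 CPM in 5xFAD and 386 and 511 CPM in Cnp-/- 5xFAD libraries. Myelin-DAM gave 224 and 169.7 CPM in Cnp-/- and 228 and 354 CPM in Cnp-/- 5xFAD libraries. The lowest homeostatic profile (771 CPM) was above every amyloid-DAM profile, and the lowest amyloid-DAM profile (385 CPM) was above every myelin-DAM profile. The mean level in amyloid-DAM was 46.9% of the homeostatic level of the same libraries and that in myelin-DAM 25.2%.

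Siglech followed the same order of means with an overlap between the DAM subpopulations. It was counted at 912 to 1456 CPM in homeostatic nuclei, and at 624 and 530.2 CPM in the 5xFAD and 457 and 379.9 CPM in the Cnp-/- 5xFAD libraries of amyloid-DAM. Myelin-DAM held 331 and 467 CPM in Cnp-/- and 186 and 319 CPM in Cnp-/- 5xFAD libraries. Tmem119 had the lowest share of its homeostatic level in DAM, 27.2% in amyloid-DAM and 21.5% in myelin-DAM. Its levels were 101 to 203 CPM in homeostatic nuclei, 12.5 to 50.2 CPM in amyloid-DAM and 0 to 48.7 CPM in myelin-DAM, so that each DAM profile rested on few UMIs. Fcrls varied among homeostatic profiles from 130 to 461 CPM, a range that held every amyloid-DAM profile (137 to 221 CPM) and part of the myelin-DAM range (62.1 to 213 CPM). Relative to homeostatic nuclei of the same libraries, its mean level was 66.7% in amyloid-DAM and 53.0% in myelin-DAM. Sall1, the transcription factor, was counted at 292 to 397 CPM in homeostatic nuclei, 139.5 to 193 CPM in amyloid-DAM and 107 to 212 CPM in myelin-DAM. The DAM subpopulations lay below the homeostatic range for Sall1 and overlapped each other.

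**Figure D1:**
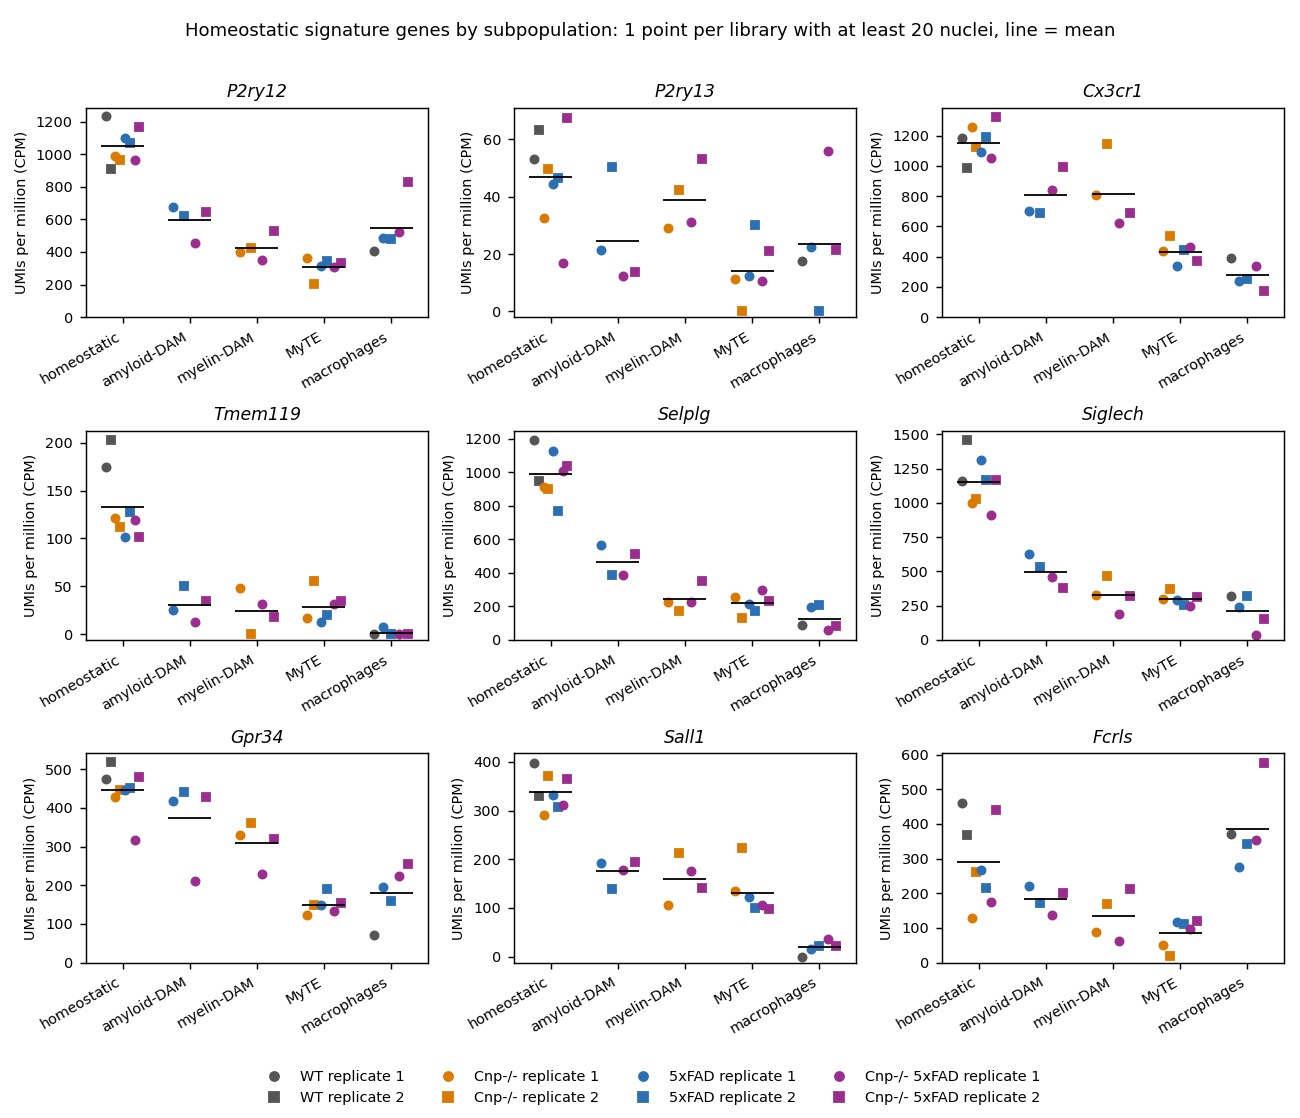
Level of each of the 9 genes (vertical axes, CPM) in the 5 subpopulations (horizontal axes), with 1 point for each library that gave at least 20 nuclei, coloured by genotype and shaped by replicate, and a line at the mean. The homeostatic points of P2ry12, Tmem119, Selplg, Siglech and Sall1 lie above all DAM points, Selplg also separates amyloid-DAM (385 to 567 CPM) from myelin-DAM (170 to 354 CPM), and Fcrls is highest in macrophages.

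The subpopulations were found by the authors by clustering these same counts, so levels in DAM against homeostatic nuclei are a description without a test. In both DAM subpopulations 5 of the 9 members (P2ry12, Tmem119, Selplg, Siglech and Sall1) lay below homeostatic nuclei without overlap. Over 3958 genes whose homeostatic mean was at least 50 CPM, 4.67% did so in amyloid-DAM and 4.19% in myelin-DAM. P2ry13 fell below that level, so these shares stand beside 5 of 8 members. Tmem119 passed on its homeostatic mean of 132 CPM, while its mean was under 50 CPM in each DAM subpopulation (30.5 CPM for amyloid-DAM, 24.4 CPM for myelin-DAM). On the log2(CPM + 10) scale, the median difference of the 9 members from homeostatic nuclei was -0.85 in amyloid-DAM and -1.06 in myelin-DAM. Over the 3958 genes it was 0.003 and -0.03. In MyTE nuclei the median of the members was -1.51 and that of the 3958 genes -0.43. MyTE nuclei had a median of 2761.5 UMIs against 1159.5 in homeostatic nuclei, and the 8 oligodendrocyte markers summed to 9315 to 12796 CPM in them against 0 to 267 CPM in homeostatic nuclei. Their part in the lower levels of MyTE nuclei was not tested.

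Macrophages separated the members. Tmem119 and Sall1 stood at 1.20% and 5.63% of the homeostatic level of the same libraries, Selplg at 12.3%, Siglech at 18.6% and Cx3cr1 at 23.7%. P2ry12 stood at 49.3%, with 406 to 831 CPM, and Fcrls at 123%, with 277 to 576 CPM. The macrophage and homeostatic ranges of Fcrls overlapped. All 8 macrophage markers, among them Mrc1, F13a1 and Cd163, were counted in these nuclei, with a sum of 9971 to 12810 CPM against 12.7 to 86.7 CPM in homeostatic nuclei.

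Setting myelin-DAM against amyloid-DAM asked whether the loss of the homeostatic programme differed between the DAM subpopulations. Their names come from the genotypes they were found in, and what each nucleus lay next to is not known. Selplg was lower in myelin-DAM, by a log2 fold change of -0.98 ± 0.22 (SE, 4 profiles against 4, adjusted p = 0.0143), and was the only member past the threshold of 0.05. P2ry12 (-0.56 ± 0.17, adjusted p = 0.0921) and Siglech (-0.76 ± 0.23, adjusted p = 0.0802) missed it. Fcrls (-0.66 ± 0.33), Gpr34 (-0.34 ± 0.24) and Sall1 (-0.25 ± 0.26) had adjusted p-values of 0.405 to 0.770, and the value of Cx3cr1 was -0.06 ± 0.17. P2ry13 and Tmem119 had too few UMIs to pass the filter. Across all genes, 115 of 3052 were called (3.77%), 63 of them lower in myelin-DAM (2.06%), and the members' count was 1 of the 7 tested. The median of these 7 members was -0.56 and that of all genes -0.02, and 4.39% of the genes tested lay lower in myelin-DAM without overlap, as Selplg did among the members. The p-values are from the quasi-likelihood F-test of edgeR, adjusted by Benjamini and Hochberg's method over all genes. Since the groups were found by clustering the same counts, they overstate the evidence. The Cnp-/- 5xFAD libraries entered both groups, and in limma-voom with the library as a random block 132 genes were called, among them Selplg (adjusted p = 0.0217).

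The call for Selplg was lost without Cnp-/- replicate 1 (log2 fold change -0.93, adjusted p = 0.115), Cnp-/- replicate 2 (-0.89, 0.0574) or 5xFAD replicate 1 (-0.86, 0.0515), with equal nuclei per profile (-0.90, 0.0912), and in either subset of genotypes, where the log2 fold change was -0.70 in Cnp-/- 5xFAD libraries alone (adjusted p = 0.423) and -1.29 between the single mutants (0.0893). Without the filter on low counts, P2ry12 (adjusted p = 0.033) and Siglech (0.00377) were called as well, among 181 genes in all. Among genes listed as markers of other cells, Flt1 and Ms4a7 were higher in myelin-DAM without overlap, while the summed macrophage markers overlapped. The paper reports genes of the Ms4a cluster as raised in myelin-DAM itself. The 4 endothelial markers summed to 337 to 555 CPM in myelin-DAM and 186 to 295 CPM in amyloid-DAM, nearly all from Flt1, while the other 3 (Cldn5, Pecam1 and Slco1a4) reached at most 38.9 CPM. The 8 macrophage markers summed to 176 to 233 CPM in myelin-DAM and 74.7 to 242 CPM in amyloid-DAM, with Pf4, Cbr2 and Lyve1 at 0 in both and Ms4a7 at 114 to 127 against 5.58 to 14.3 CPM. The 11 DAM markers in the table (such as Apoe, Lpl and Axl) summed to 2991 to 4411 CPM in myelin-DAM and 5072 to 6292 CPM in amyloid-DAM. The part of these markers in the Selplg difference was not tested.

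**Figure D2:**
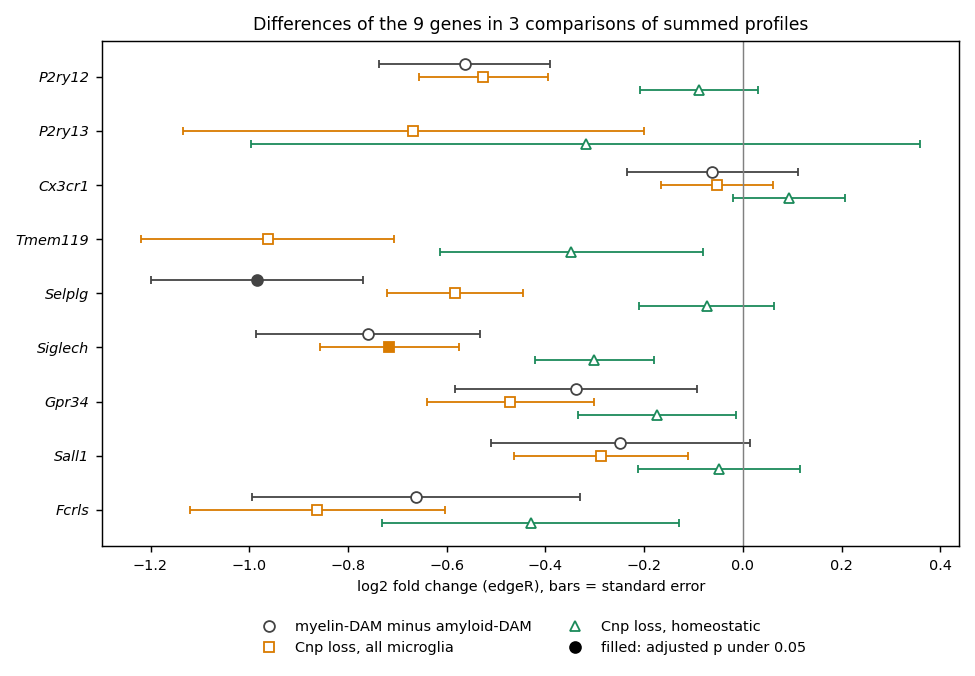
Log2 fold change (horizontal axis, edgeR, bars are standard errors) of each gene (vertical axis) between myelin-DAM and amyloid-DAM (circles), with Cnp loss over all microglia (squares) and with Cnp loss in homeostatic nuclei (triangles), filled where the adjusted p was under 0.05. Only Selplg between the DAM subpopulations (-0.98) and Siglech over all microglia (-0.72) are filled, and for 8 of the 9 genes (all but Cx3cr1) the triangle lies closest to 0.

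Within a DAM subpopulation, adding the other disease did not give a called member. The contrast of Cnp-/- 5xFAD with 5xFAD in amyloid-DAM called 0 of 3919 genes in edgeR (118 at an unadjusted p under 0.05, 2 in DESeq2), and that of Cnp-/- 5xFAD with Cnp-/- in myelin-DAM also called 0 (242 unadjusted, 3 in DESeq2). Siglech had negative values in both, -0.45 ± 0.21 in amyloid-DAM (unadjusted p = 0.056) and -0.66 ± 0.33 in myelin-DAM (unadjusted p = 0.0699). Cx3cr1 had values of opposite sign, 0.40 ± 0.17 in amyloid-DAM and -0.52 ± 0.22 in myelin-DAM. For Cx3cr1, both Cnp-/- 5xFAD libraries were above both 5xFAD libraries in amyloid-DAM, as 15.6% of the genes tested were, and below both Cnp-/- libraries in myelin-DAM, as 15.9% were. Those of Siglech were below in both, as 16.8% and 15.9% of the genes were, so that such a separation was common with 2 libraries against 2. In amyloid-DAM, P2ry13 also lay below (12.5 to 13.8 against 21.4 to 50.2 CPM), on too few UMIs to be among the genes tested. In myelin-DAM, Gpr34 also lay below without overlap, and Selplg above, as 17.2% of the genes did. The difference of both Cx3cr1 effects, tested after the values had been seen, was -0.92 ± 0.27 (unadjusted p = 0.00576, adjusted p = 0.712). That contrast called 0 of 3919 genes, with 188 at an unadjusted p under 0.05 in edgeR.

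Nuclei annotated as homeostatic were then compared across genotypes, to ask whether the signature drifts before microglia leave this class. The class itself was found by clustering counts that include these genes, so nuclei that had lost the signature could be assigned elsewhere, and small differences within it do not show that the genes were unaffected. None of the 9 members passed the threshold for Cnp loss, for 5xFAD or for their interaction. Siglech had the smallest unadjusted p for Cnp loss. It was counted at 1159 and 1456 CPM in WT, 1316 and 1166 CPM in 5xFAD, 997 and 1028 CPM in Cnp-/- and 912 and 1169 CPM in Cnp-/- 5xFAD libraries. The ranges with and without Cnp overlapped by 1 library, and the log2 fold change was -0.30 ± 0.12 (unadjusted p = 0.0304, adjusted p = 0.91).

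P2ry12 stayed at 1231 and 911 CPM in WT, 989 and 966 CPM in Cnp-/-, 1097 and 1067 CPM in 5xFAD and 963 and 1169 CPM in Cnp-/- 5xFAD libraries. The WT libraries were the highest and the lowest of the 8. Its log2 fold change was -0.09 ± 0.12 for Cnp loss and 0.05 ± 0.12 for 5xFAD. Cx3cr1 (0.09 ± 0.11 for Cnp loss), Selplg (-0.07 ± 0.14), Sall1 (-0.05 ± 0.16) and Gpr34 (-0.17 ± 0.16) also lay near 0, with SEs of 0.11 to 0.16, so that small changes were not detectable here.

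Tmem119 was counted at 175 and 203 CPM in WT, 122 and 111 CPM in Cnp-/-, 101 and 128 CPM in 5xFAD and 119 and 101 CPM in Cnp-/- 5xFAD libraries. Both WT libraries lay above all 6 mutant libraries. It was the only 1 of the 9 members to do so, a pattern looked for after its values had been seen, and 4.42% of 4566 genes showed it. In the same homeostatic profiles the 11 DAM markers summed to 286 and 291 CPM in WT and to 669 to 998 CPM in the mutant libraries. The 8 macrophage markers summed to 12.7 and 29.1 CPM in WT against 56.7 to 86.7 CPM. These macrophage sums rested on 1 and 6 UMIs in WT and on 7 to 18 UMIs in the mutant libraries. The part of the DAM and macrophage markers in the Tmem119 pattern was not tested. The fitted effects were -0.35 ± 0.27 for Cnp loss and -0.39 ± 0.27 for 5xFAD, with adjusted p-values of 0.984 and 0.991. Fcrls was counted at 461 and 367 CPM in WT, 129.7 and 260.1 CPM in Cnp-/-, 267 and 215 CPM in 5xFAD and 176 and 439 CPM in Cnp-/- 5xFAD libraries. The single mutants lay below WT, a pattern whose share over all genes was not counted. The Cnp-/- 5xFAD libraries spread widely, with an interaction of 1.51 ± 0.60 (unadjusted p = 0.029, adjusted p = 0.9). P2ry13 rested on too few UMIs for a small effect to be detectable (-0.32 ± 0.68 for Cnp loss).

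Over all genes in homeostatic nuclei, 5 of 4566 were called for Cnp loss (0.11%) and 3 for 5xFAD (0.0657%). The interaction called 0 in edgeR, with 222 genes at an unadjusted p under 0.05, and 0 in DESeq2. Of the members, 0 of 9 lay lower with Cnp loss without overlap, against 1.53% of all genes tested. The median log2 fold change of the members was -0.17 for Cnp loss and -0.05 for 5xFAD, and that of all genes 0.00 and 0.03.

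**Figure D3:**
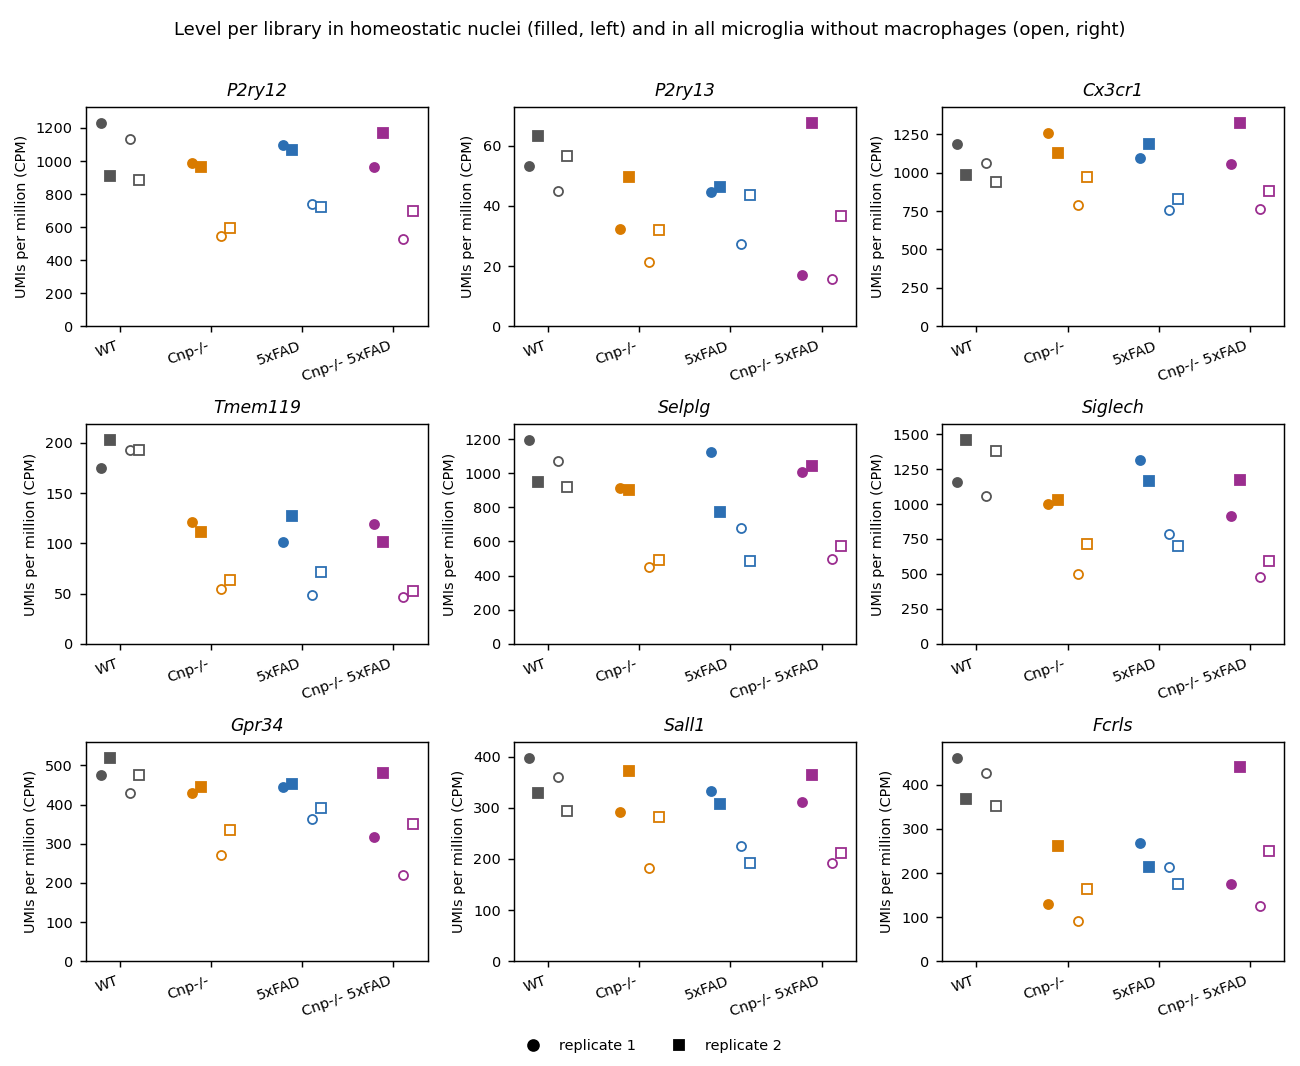
Level of each gene (vertical axes, CPM from 0) by genotype (horizontal axes) in homeostatic nuclei (filled) and in all microglia without macrophages (open), with 1 point per library shaped by replicate. For Siglech, filled and open points lie closer together in WT than in the other genotypes, as in Cnp-/- (997 and 1028 CPM in homeostatic nuclei, 502 and 711 CPM in all microglia).

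Summed over all microglia without macrophages, Siglech was lower in the Cnp-/- background. It was counted at 1057 and 1382 CPM in WT, 789 and 703 CPM in 5xFAD, 502 and 711 CPM in Cnp-/- and 478 and 591 CPM in Cnp-/- 5xFAD libraries. WT libraries were highest, and 1 Cnp-/- library lay just above the lower 5xFAD library. For the other members except Cx3cr1, both WT libraries were also highest, above the 5xFAD as well as the Cnp-/- libraries. The share of all genes with this pattern was not counted. The log2 fold change of Siglech for Cnp loss was -0.72 ± 0.14 (adjusted p = 0.0408), the only called member. All 9 members had negative values, with a median of -0.58 against 0.02 over all genes. In all, 130 of 8185 genes were called for Cnp loss (1.59%), of which 14 were lower (0.171%).

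P2ry12 was counted at 1131 and 883 CPM in WT and 741 and 720.0 CPM in 5xFAD, above 545 and 594 CPM in Cnp-/- and 528 and 699 CPM in Cnp-/- 5xFAD libraries. It and Gpr34 were the 2 of 9 members without overlap between Cnp-/- and intact backgrounds, as 2.44% of the genes tested were. The log2 fold change of P2ry12 was -0.53 ± 0.13 (adjusted p = 0.0929) in edgeR, and DESeq2 called it (adjusted p = 0.00466) among 237 genes in all. Selplg (-0.58 ± 0.14, adjusted p = 0.0807) and Fcrls (-0.86 ± 0.26, adjusted p = 0.163) were also called by DESeq2, at 0.00318 and 0.0416. With DESeq2 included, 2 alternatives called P2ry12, 2 called Fcrls and 3 called Selplg, while 13, 13 and 12 left them uncalled. Tmem119 had the largest fitted value, -0.96 ± 0.26 (adjusted p = 0.119), and Cx3cr1 the smallest, -0.05 ± 0.11.

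For 5xFAD, 32 of 8185 genes were called (0.391%) and none of the 9 members in edgeR. Tmem119 had a value of -0.96 ± 0.26 (unadjusted p = 0.00399, adjusted p = 0.188), averaged over both Cnp states. It was counted at 193 and 193 CPM in WT against 48.9 and 71.8 CPM in 5xFAD libraries. In the Cnp-/- background the difference was smaller, with 54.2 to 63.7 CPM in Cnp-/- and 47.0 to 52.8 CPM in Cnp-/- 5xFAD libraries. The interaction called 4 genes (0.0489%) and no member in edgeR, with positive values for all 9. Among them were Fcrls (1.60 ± 0.52, adjusted p = 0.383), Tmem119 (1.42 ± 0.51, adjusted p = 0.446) and Selplg (0.92 ± 0.27, adjusted p = 0.334). Fcrls was called without the filter on low counts (adjusted p = 0.0265, 131 genes called) and Selplg by DESeq2 (adjusted p = 0.0489, 67 genes called). A positive interaction means that the combined mutant lay above the sum of the single effects.

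Homeostatic nuclei made up 92.3% and 94.1% of microglia in the WT libraries, 40.5% and 51.2% in Cnp-/-, 45.7% and 47.8% in 5xFAD and 32.4% and 39.0% in Cnp-/- 5xFAD. In these sums, fewer homeostatic nuclei and less of a transcript per nucleus cannot be told apart. The 8 oligodendrocyte markers moved with Cnp loss, from 1370 to 2513 CPM in intact libraries to 2706 to 5461 CPM in the Cnp-/- background. Among intact libraries they were at 1639 and 1370 CPM in WT and at 2513 and 2465 CPM in 5xFAD. The 4 endothelial markers also moved with Cnp loss, from 90.6 to 142 CPM to 164 to 273 CPM. Among intact libraries they were at 98.3 and 90.6 CPM in WT and at 142 and 115 CPM in 5xFAD. The share of all genes that rose without overlap was not counted. In the DAM subpopulations nearly all of the endothelial sum came from Flt1. With MyTE nuclei left out, Siglech had a log2 fold change of -0.64 and an adjusted p of 0.107. Its call was also lost with equal nuclei per library (0.0568), with the annotation of all cell types (0.0533) and without each library in turn other than Cnp-/- replicate 2 (adjusted p = 0.072 to 0.153, log2 fold change -0.59 to -0.79).

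Cx3cl1, the ligand of Cx3cr1, was followed in neurons. It was counted at 74.3 and 73.5 CPM in WT, 85.3 and 81.5 CPM in Cnp-/-, 66.7 and 83.0 CPM in 5xFAD and 90.7 and 72.8 CPM in Cnp-/- 5xFAD libraries. Both Cnp-/- libraries lay above both WT libraries, while the libraries with 5xFAD overlapped each other and the rest. The share of genes with such a separation was not counted in neurons, and within DAM it was 15.6% to 17.2%. The log2 fold change for Cnp loss was 0.22 ± 0.09 (unadjusted p = 0.0435, adjusted p = 0.605). For Cnp loss in neurons, edgeR called 4 of 21584 genes, with 1756 at an unadjusted p under 0.05.

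Other genes of the same biology were counted from 3 lists. The lists were chosen with earlier results of these data known, so their counts are a description. Of 30 further genes of the homeostatic programme, 26 were tested between the DAM subpopulations and 3 were lower in myelin-DAM: Nav3, a microtubule-binding navigator protein (log2 fold change -1.49 ± 0.14, adjusted p = 4.95e-06), Serpine2, a protease inhibitor (-1.31 ± 0.20, adjusted p = 0.00107), and Tgfbr2, a receptor of TGF-β, which microglia need for their identity (-0.67 ± 0.13, adjusted p = 0.00752). None was higher, and the median was -0.18, beside -0.02 over all genes, of which 3.77% were called and 2.06% called lower. Of 18 transcription factors tested, Zeb2 was higher in myelin-DAM (0.43 ± 0.11, adjusted p = 0.0305) and Mef2c, which sets the microglial enhancer landscape, lower (-0.54 ± 0.12, adjusted p = 0.0181). Of 10 other nucleotide and chemokine receptors and coupled proteins tested, P2rx4, an ATP-gated channel, was higher in myelin-DAM (0.76 ± 0.18, adjusted p = 0.0213) and none was lower. Nav3 was also the only gene of the lists called for Cnp loss, in homeostatic nuclei (-0.59 ± 0.09, adjusted p = 0.0411) and over all microglia (-0.96 ± 0.10, adjusted p = 0.00382), where 0.11% and 1.59% of all genes were called. In homeostatic nuclei this call was lost with the replicate block and without Cnp-/- replicate 1, Cnp-/- 5xFAD replicate 1 or 2, or 5xFAD replicate 1 or 2, as 0 genes were then called. No gene of the lists was called for 5xFAD or the interaction in either. The DAM comparison and that over all microglia share libraries, so these are not independent of each other.

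Across 27 profiles of the 5 subpopulations, the genes whose log2(CPM + 10) followed the mean of the 7 members that passed the filter most closely were Bbs9 (Pearson's r = 0.94), Tanc2 (0.94), Ldlrad4 (0.93), Phyhd1 (0.92) and Pde3b (0.92), out of 4298 candidates with a mean of at least 50 CPM. Tanc2 and Ldlrad4 belong to the list of the homeostatic programme. That list was chosen with earlier results of these data known, so their place here is no independent evidence. Each member was set against the mean of the passing members without itself, and these values ranged from 0.17 for Fcrls to 0.91 for Selplg. The references differ, so the members' values and those of the genes above are not directly comparable. Profiles of 1 library share their depth and handling, so these correlations are a description.

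In single nuclei, at least 1 UMI of any member was found in 99.3% of 982 homeostatic nuclei, 93.3% of 586 amyloid-DAM and 84.7% of 248 myelin-DAM nuclei. Thinned to 728 UMIs per nucleus, the shares were 97.1%, 83.5% and 73.3%, with 102, 50 and 29 shallower nuclei left out. Selplg went from 50.5% of homeostatic nuclei to 26.6% of amyloid-DAM and 15.9% of myelin-DAM nuclei at this depth (67.1%, 42.3% and 22.6% before thinning). P2ry12 went from 50.3% to 29.4% and 23.4% (64.5%, 46.1% and 33.5% before). In neurons, which should lack the members, 4.64% of nuclei held a UMI of any member at 728 UMIs, and 41.6% at their own median depth of 9105 UMIs. P2ry12 alone accounted for 2.94% of thinned neurons.

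P2ry12 was counted in other cell types beyond a trace. It stood at 42.3 CPM in neurons, 43.1 CPM in astrocytes and 39.5 CPM in oligodendrocyte progenitors, against 669 CPM in microglia and macrophages, and only 9.77% of its UMIs came from nuclei annotated as microglia or macrophages. Mature oligodendrocytes held 2.65 CPM. Med12l, which spans P2ry12 on the other strand and shares 9 exonic bp with it, stood at 216 CPM in neurons, 212 CPM in astrocytes, 263 CPM in progenitors and 2.44 CPM in mature oligodendrocytes. Per 100 Med12l UMIs there were 19.6 P2ry12 UMIs in neurons, 20.3 in astrocytes and 15.0 in progenitors, 36.5 in endothelium, 36.4 in newly formed oligodendrocytes, and 316 in microglia and macrophages. Pericytes (93.3) and mature oligodendrocytes (109) rested on at most 25 P2ry12 UMIs. Whether reads of the opposite strand or of introns were counted is not given in the sources used here, and without it the reads of P2ry12 and Med12l cannot be told apart in cells other than microglia. P2ry13, inside Med12l as well, stayed at 0.0711 to 0.331 CPM in neurons, astrocytes, progenitors, endothelium and mature oligodendrocytes. Gpr34, inside Cask, stood at 1.98 UMIs per 100 Cask UMIs in neurons and 92.6 in microglia and macrophages. The span of Cx3cr1 overlaps 9 other genes, with at most 181 UMIs each in the microglia table. Fcrls was the member most restricted to microglia and macrophages, with 59.9% of its UMIs there.

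**Figure D4:**
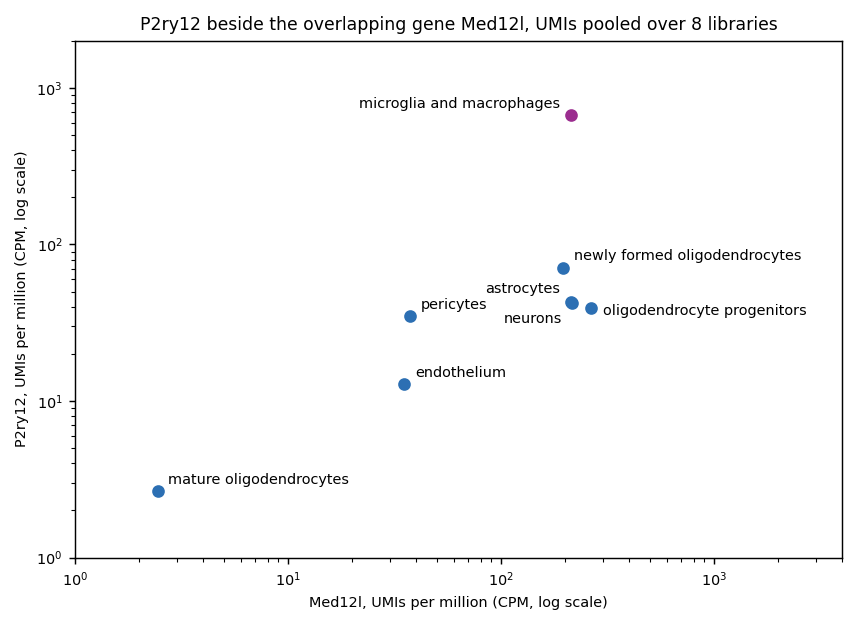
P2ry12 level (vertical axis, CPM, log scale) against that of the overlapping gene Med12l (horizontal axis, CPM, log scale) in 8 annotated cell types, with UMIs pooled over 8 libraries and no error bars. Neurons, astrocytes and oligodendrocyte progenitors lie together near 40 CPM of P2ry12 and above 200 CPM of Med12l, mature oligodendrocytes are low for both, and microglia with macrophages (669 CPM) lie far above cells of like Med12l level.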

How the data were processed

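Nuclei were sequenced with the 10x Genomics 3′ protocol. Per the labels the authors aligned reads to mm10 with Cell Ranger 6.1.2, and per their methods removed ambient RNA with CellBender and clustered nuclei with Seurat. The deposited values are UMI counts per gene and nucleus without normalization, with the authors' cell type and subpopulation for each nucleus. Doublet treatment, intron counting and strand handling are not given in the sources used here. Counts were summed per library and subpopulation (profiles of at least 20 nuclei). Genes were filtered by filterByExpr, scaled by TMM and tested two-sided with edgeR 4.0.16 (quasi-likelihood) in R 4.3.3, with Benjamini-Hochberg adjustment over all genes and a threshold of 0.05. The library was the replicate. Genotypes were compared as 1 mean per genotype, with Cnp loss averaged over both 5xFAD states, 5xFAD over both Cnp states, and their interaction. Differences from homeostatic nuclei used log2(CPM + 10) within a library. The fits of myelin-DAM against amyloid-DAM, and of Cnp loss in homeostatic nuclei and in all microglia, were tested on simulated counts with known changes. The other contrasts were not simulated. Profiles were drawn independently, although the Cnp-/- 5xFAD libraries entered both DAM groups. Shares of nuclei were thinned to 728 UMIs, the 10th percentile. Positions are from GENCODE for GRCm38 and promoters from RefSeq.

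Alternatives were the size factors of DESeq2 1.42.0, DESeq2 itself, no filter, the replicate number as a block, limma-voom (limma 3.58.1) with the library as a random block, equal nuclei per profile, profiles of at least 5 nuclei, nuclei of at least 1000 UMIs, nuclei with under 2 oligodendrocyte UMIs, MyTE nuclei left out, the annotation of all cell types, only the Cnp-/- 5xFAD libraries, only the single mutants, and each library left out. The members and lists were chosen with earlier results of these data known. All 9 members are named, with Cx3cl1, overlapping genes, the genes of the 3 lists past the threshold and the 5 genes most like the members. Biological coefficients of variation were 0.152 for the DAM comparison, 0.182 for genotypes within DAM, 0.285 for homeostatic nuclei and 0.299 for all microglia. Intervals from counts cover counting error only. Replicate numbers of different genotypes share only a number: deviations of same-numbered libraries correlated at -0.0637 to 0.0824.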

Additional observations from a re-analysis of the deposited data

Results flagged for a closer look

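In 13 of 144 groups of 4 to 6 libraries, 1 library stood apart from the others by Dixon's test at its 95% limit, and chance flags about 1 group in 20. In microglia, these were P2ry12 in homeostatic nuclei of the Cnp-/- background, where Cnp-/- 5xFAD replicate 2 held 1169 CPM and the other 3 libraries 963 to 989 CPM, and Selplg in homeostatic nuclei without 5xFAD, where WT replicate 1 held 1192 CPM and the others 904 to 949 CPM. Gpr34 in amyloid-DAM was at 212 CPM in Cnp-/- 5xFAD replicate 1 and at 417 to 441 CPM in the others. In MyTE nuclei, Cnp-/- replicate 2 held 205 CPM of P2ry12 (others 307 to 360.3 CPM) and 223 CPM of Sall1 (others 97.8 to 135 CPM). In macrophages, P2ry12 was at 831 CPM in Cnp-/- 5xFAD replicate 2 (others 406 to 521 CPM), and Tmem119 at 7.47 CPM in 5xFAD replicate 1 and 0 in the others. The Tmem119 flag rested on 1 UMI.

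In neurons, Sall1 was at 12.2 CPM in WT replicate 1 and at 12.7 CPM in Cnp-/- replicate 2, while the other libraries of their backgrounds held 1.79 to 3.02 CPM and 1.5 to 1.93 CPM. Cx3cr1 was at 10.6 CPM in WT replicate 2 (others with intact Cnp 11.3 CPM each) and at 9.0 CPM in Cnp-/- 5xFAD replicate 2 (others with 5xFAD 11.3 to 11.7 CPM). Tmem119 was at 0.907 CPM in WT replicate 2 (others 0.319 to 0.419 CPM) and Fcrls at 0.623 CPM in Cnp-/- replicate 2 (others 0.738 to 0.752 CPM).

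The annotation of all cell types held 181 microglia nuclei that are not in the microglia table. They carried 879 UMIs of the 9 members, 1004 CPM of their summed profile, of which P2ry12 made up 250.1 CPM and Cx3cr1 210.1 CPM.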

How the results depend on the processing

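Of the members' fold changes under the alternatives, 492 kept their direction and side of the threshold, 16 lost a call, 11 gained one and 17 changed sign, the last all for values that were not called. Sign changed for Cx3cr1 between the DAM subpopulations among the single mutants (0.38) and with equal nuclei (0.0515), and over libraries left out this value was -0.21 to 0.0955. It changed for Cx3cr1 with Cnp loss over all microglia without MyTE nuclei (0.0497), with equal nuclei (0.0120), with the annotation of all cell types (0.00202) and over libraries left out (-0.11 to 0.0338), and for Selplg with Cnp loss in homeostatic nuclei with equal nuclei (0.00903). In homeostatic nuclei the Cnp effect over libraries left out was -0.17 to 0.0324 for P2ry12, -0.94 to 0.0186 for P2ry13, -0.20 to 0.0744 for Selplg and -0.13 to 0.0343 for Sall1. The 5xFAD effect on Cx3cl1 in neurons was -0.0672 to 0.0766 over libraries left out.

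Counts of called genes depended more on the setting. Without the filter, 181 genes were called between the DAM subpopulations, 27 for Cnp loss, 60 for 5xFAD and 12 for the interaction in homeostatic nuclei, 377, 264 and 131 for the same in all microglia, and 10 and 11 between genotypes within amyloid-DAM and myelin-DAM. DESeq2 called 14 genes for 5xFAD in homeostatic nuclei, 237 for Cnp loss, 126 for 5xFAD and 67 for the interaction in all microglia, and 2 and 3 within amyloid-DAM and myelin-DAM. Between the DAM subpopulations, 5 genes were called in the Cnp-/- 5xFAD libraries alone, 42 between the single mutants and 46 with equal nuclei. Equal nuclei gave 6 for 5xFAD in homeostatic nuclei and 72 for Cnp loss in all microglia. Nuclei of at least 1000 UMIs gave 5 for 5xFAD and 2 for the interaction in homeostatic nuclei, and those with few oligodendrocyte UMIs 1 for Cnp loss. Without MyTE nuclei 32 genes were called for Cnp loss and 1 for the interaction in all microglia, and the annotation of all cell types gave 0 for the interaction. Over libraries left out, the calls were 58 to 92 between the DAM subpopulations, 0 to 9 for Cnp loss, 2 to 9 for 5xFAD and 0 to 2 for the interaction in homeostatic nuclei, 22 to 132, 19 to 48 and 1 to 16 in all microglia, and 0 to 2 within each DAM subpopulation.

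Replicate numbers gave no pairing, with correlations of same-numbered libraries under 0.1 other than 0.46 between both DAM profiles of the same Cnp-/- 5xFAD libraries. With the replicate block, 0 genes were called for Cnp loss in homeostatic nuclei, 1 within myelin-DAM, 1 for the interaction in all microglia and 122 between the DAM subpopulations. The block left the calls of Selplg (adjusted p = 0.0147) and Siglech (0.031) in place.

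The share of nuclei with a UMI of any member fell on thinning to 97.1%, 83.5% and 73.3% in homeostatic, amyloid-DAM and myelin-DAM nuclei and was 95.6% in amyloid-DAM nuclei of at least 1000 UMIs. Depth limited P2ry13 and Tmem119 most: both lacked the UMIs to be tested between the DAM subpopulations, and without the filter their values were 0.48 (adjusted p = 0.85) and -0.21 (adjusted p = 0.944). With 2 libraries per genotype, a genotype left with 1 library is assumed to vary like the others. The causes of these shifts were not tested.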

Other observations

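Outside microglia and macrophages, 8 of the 9 members had their highest pooled level in newly formed oligodendrocytes, a population of 465 nuclei. By the mean over libraries 6 did, since P2ry13 and Tmem119 were then highest in pericytes, where each was counted by 1 UMI. The pooled levels there were 71.1 CPM for P2ry12, 58.2 CPM for Cx3cr1, 48.4 CPM for Siglech, 38.6 CPM for Selplg, 31.8 CPM for Gpr34, 8.70 CPM for Fcrls, 3.40 CPM for P2ry13 and 3.02 CPM for Tmem119. Csf1r, a receptor that marks microglia, stood at 45.7 CPM in these nuclei, 2.01 CPM in mature oligodendrocytes and at most 9.18 CPM in the other cell types outside microglia, and its part in the members' levels was not tested. In mature oligodendrocytes the same genes were lower, with 10.2 CPM for Cx3cr1 and 1.80 CPM for Selplg. Sall1 had another distribution, with 37.3 CPM in pericytes, 35.2 CPM in newly formed oligodendrocytes, 33.4 CPM in mature oligodendrocytes and 28.4 CPM in astrocytes.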
